A study of Mus musculus with 21 samples.

Results

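The effect of adding the Etv6 substitution S211I to the substitution P216L was examined in megakaryocyte-erythroid progenitors (MEP), the bone marrow cells from which red cells and platelets descend. The samples were chosen by their labels. They were 3 MEP libraries from mice with both S211I and P216L in Etv6 (the double mutant) and 3 from mice with P216L alone, 6 of the 21 libraries of the series. The sample titles name the added change S211I while the genotype field writes P211I, a discrepancy that was not resolved, and the title form is used. All were bone marrow cells isolated by flow sorting, and the RNA was sequenced after a low-input amplification. MEP libraries with S211I alone (n = 2) and with wild-type Etv6 (WT, n = 2) served as context, as did 6 libraries of hematopoietic stem cells (HSC) with the double mutant or P216L. Age, strain, zygosity and the number of animals behind each library are not stated in the sources used here. The p-values therefore measure the spread between these samples, which may be technical.

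Etv6 is a transcription factor of the ETS family, which binds DNA at sites built around GGAA. It acts mainly as a repressor in the nucleus, together with partners such as Sin3a, Ncor1 and histone deacetylases. In blood it is needed for stem cells to persist in adult bone marrow and for platelet formation, and inherited changes in the human gene cause low platelet counts and a tendency to leukemia. The series title names the creation of a nuclear export signal by such a change. The comparison asks how the transcriptome of cells with P216L differs when S211I is present as well.

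The double mutant differed from P216L in few genes. Of 10773 genes tested, 12 passed the threshold, an adjusted p below 0.05 in edgeR's quasi-likelihood test with Benjamini-Hochberg adjustment (0.111% of genes). Of these, 11 were lower in the double mutant (0.102%) and 1 was higher (0.00928%). The lower genes were the methyl-CpG-binding repressor Mbd2, the RNA-binding genes Qk, Ybx3 and Khdrbs3, the ubiquitin ligase genes Cul3 and Znrf2, the oxygen sensor Egln1, the phosphatase subunit Ppp2cb, the platelet signalling gene Plek, the protease inhibitor Serpina3g and the secreted matrix gene Spon2. The higher gene was Bex4. Each of the 11 was lower in all 3 double-mutant libraries than in any of the other 7 MEP libraries, a pattern found in 95 genes (0.882%). Bex4 was higher in all 3 than in the other 7, as were 129 genes in all (1.2%). The median log2 fold change over all genes tested was -0.0022, and 49.5% of genes lay above 0. At an unadjusted p below 0.05 there were 460 genes (4.27%), 203 higher (1.88%) and 257 lower (2.39%).

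The sequences shown next lie before the starts of Ybx3, Cul3 and Qk, 3 of the 4 genes whose calls held under all 13 alternatives, and are given because ETS factors bind GGAA elements. Each is the 250 bases before the annotated start, from RefSeq on GRCm38.p6, read 5′ to 3′ along the gene. GGAA and its reverse complement TTCC are in capitals. The authors' files use GRCm39, so the coordinates apply to the sequence table and to no measurement.
Ybx3, chr6:131388451-131388700, minus strand: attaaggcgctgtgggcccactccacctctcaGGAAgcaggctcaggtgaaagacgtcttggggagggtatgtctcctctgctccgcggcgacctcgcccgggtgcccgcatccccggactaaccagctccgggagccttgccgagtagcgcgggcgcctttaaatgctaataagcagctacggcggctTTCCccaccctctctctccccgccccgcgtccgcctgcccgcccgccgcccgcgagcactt
Cul3, chr1:80340691-80340940, minus strand: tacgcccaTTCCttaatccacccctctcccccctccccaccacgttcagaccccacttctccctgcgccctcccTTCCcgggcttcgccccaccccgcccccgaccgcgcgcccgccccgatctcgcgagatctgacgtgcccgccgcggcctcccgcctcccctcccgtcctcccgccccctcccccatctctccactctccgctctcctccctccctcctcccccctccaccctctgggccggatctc
Qk, chr17:10319362-10319611, minus strand: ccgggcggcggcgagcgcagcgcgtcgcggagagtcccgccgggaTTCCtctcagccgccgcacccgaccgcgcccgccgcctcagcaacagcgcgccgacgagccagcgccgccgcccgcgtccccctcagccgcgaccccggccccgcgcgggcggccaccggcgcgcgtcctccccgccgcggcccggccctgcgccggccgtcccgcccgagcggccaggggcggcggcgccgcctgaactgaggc
The Ybx3 and Cul3 stretches hold 2 such elements each and the Qk stretch holds 1, in sequences of 67.2, 73.2 and 84.8% G and C. In the full windows, which run 50 bases past the start, GGAA was present on either strand in 8 of the 8 called genes with a window and in 96.6% of 8742 tested genes. The longer ETS-type motif CCGGAAG, searched on both strands and containing GGAA, was in 0 of the 8 and in 22.8% of the 8742. A match is a description of letters, and its absence says only that these letters are not in this window.

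Total counts were 4805997 to 8667242 in the double mutant and 3387389 to 7932134 in P216L, with 12713 to 15889 genes detected across all MEP libraries. Values below are normalized counts per 1e6 counts (CPM), or log2 fold changes of the double mutant against P216L with their standard errors (SE). Some marker genes are given as values, which do not test the MEP label. Gata1, the main erythroid and megakaryocyte transcription factor, stood at 440 to 512 CPM over the 6 libraries, the carbonic anhydrase gene Car1 at 7825 to 9660, and the stem cell marker Procr at 0 to 0.89. Some megakaryocyte genes were scarce, with Itga2b at 7.38 to 19.2 CPM and Pf4 at 0.82 to 5.05, while Gp5 was at 58.8 to 70.4. Among the 6 libraries, P216L replicate 3 stood apart. It lay at -43.8 on the first principal component of all MEP libraries, against -7 to 7.2 for the other 5. That component held 19.4% of the variance, and WT replicate 1 lay at its other end, at 37.3. The third component, given because the groups separate on it, held 12.9% of the variance. The double-mutant libraries lay there at -20.1, -13.1 and -17.1, and all other MEP libraries at -8.4 to 29.6. P216L replicate 3 also had the smallest total. The summed CPM of 18 neutrophil and granule genes was 180 there against 34.3 to 88.2 in the other 5. The part of these features in the results was not tested, and the count without that library was 20 genes, 16 lower and 4 higher, with 10 of the 12 among them.

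Etv6 itself did not pass the threshold. Its CPM was 41.8, 29.0 and 31.6 in the double mutant and 24.9, 37.3 and 32.4 in P216L. The groups overlapped, and the log2 fold change was 0.11 ± 0.21 (edgeR quasi-likelihood test, adjusted p = 1), with a sign that depended on single libraries. Without double-mutant replicate 1 it was -0.052, and without P216L replicate 1 it was -0.048. Both alleles are amino acid substitutions, so the count of Etv6 does not test the genotype labels.

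Among chromatin genes, Mbd2 gave the smallest p of the comparison. It encodes a protein that binds methylated CpG and joins the NuRD repressor complex. Mbd2 stood at 210.4, 174 and 213 CPM in the double mutant and at 409, 381 and 373 in P216L. The groups were far apart, and S211I alone (416 and 449) and WT (457 and 485) were above both. The log2 fold change was -0.96 ± 0.11 (edgeR, adjusted p = 0.000171), from 387.5 ± 19.3 to 199 ± 21.97 CPM (SD, n = 3 each). Mbd1, Mbd3 and Mbd4, 3 related genes of the methyl-CpG-binding domain family chosen after values were seen, lay between -0.04 and 0.12 with SEs of 0.114 to 0.214. Mbd3, which takes the place of Mbd2 in NuRD, was at 159, 178 and 198 CPM in the double mutant and 162, 170.2 and 161 in P216L. In the list of 24 chromatin remodelling and repression genes, Mbd2 was the 1 called member, and 12 of the 24 had a positive fold change.

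The RNA-binding genes Ybx3, Qk and Khdrbs3 fell. Ybx3 encodes a cold-shock domain protein that binds messenger RNA and represses translation. It was the most abundant called gene, at 965, 739 and 804 CPM in the double mutant against 1614, 1486 and 1441 in P216L. Every double-mutant library was below every other MEP library, and the S211I and WT libraries lay at 1457 to 1584. The change was -0.86 ± 0.10 (edgeR, adjusted p = 0.000318). Its relative Ybx1, the widely expressed member of the family and, like all relatives given here, chosen after values were seen, was not called (0.17 ± 0.096), at 1355 ± 39.4 CPM in the double mutant and 1203 ± 73.8 in P216L.

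Qk, or Quaking, encodes a protein of the STAR family that governs splicing, stability and circular RNA formation. Its values were 65.6, 64.3 and 63.9 CPM in the double mutant and 157, 149.6 and 102 in P216L. The double-mutant libraries lay within 2 CPM of each other, while P216L replicate 3 was the lowest of its group and still above them. The log2 fold change was -1.08 ± 0.15 (edgeR, adjusted p = 0.000845), a 2.11-fold difference. Khdrbs3, another STAR protein gene that acts in splicing, was at 3.53, 5.30 and 10.7 CPM in the double mutant and at 48.0, 24.1 and 20.5 in P216L. These groups did not overlap, but the P216L libraries spread widely. Its log2 fold change of -2.23 ± 0.38 was the furthest from 0 among the called genes (edgeR, adjusted p = 0.0368). It was lost without double-mutant replicate 1 or 2 (adjusted p = 0.134 and 0.299) and without P216L replicate 1 or 2 (0.136 and 0.0703). A further STAR gene, Khdrbs1, was at 191 ± 8.40 and 184 ± 19.4 CPM, a log2 fold change of 0.05 ± 0.13.

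**Figure D1:**
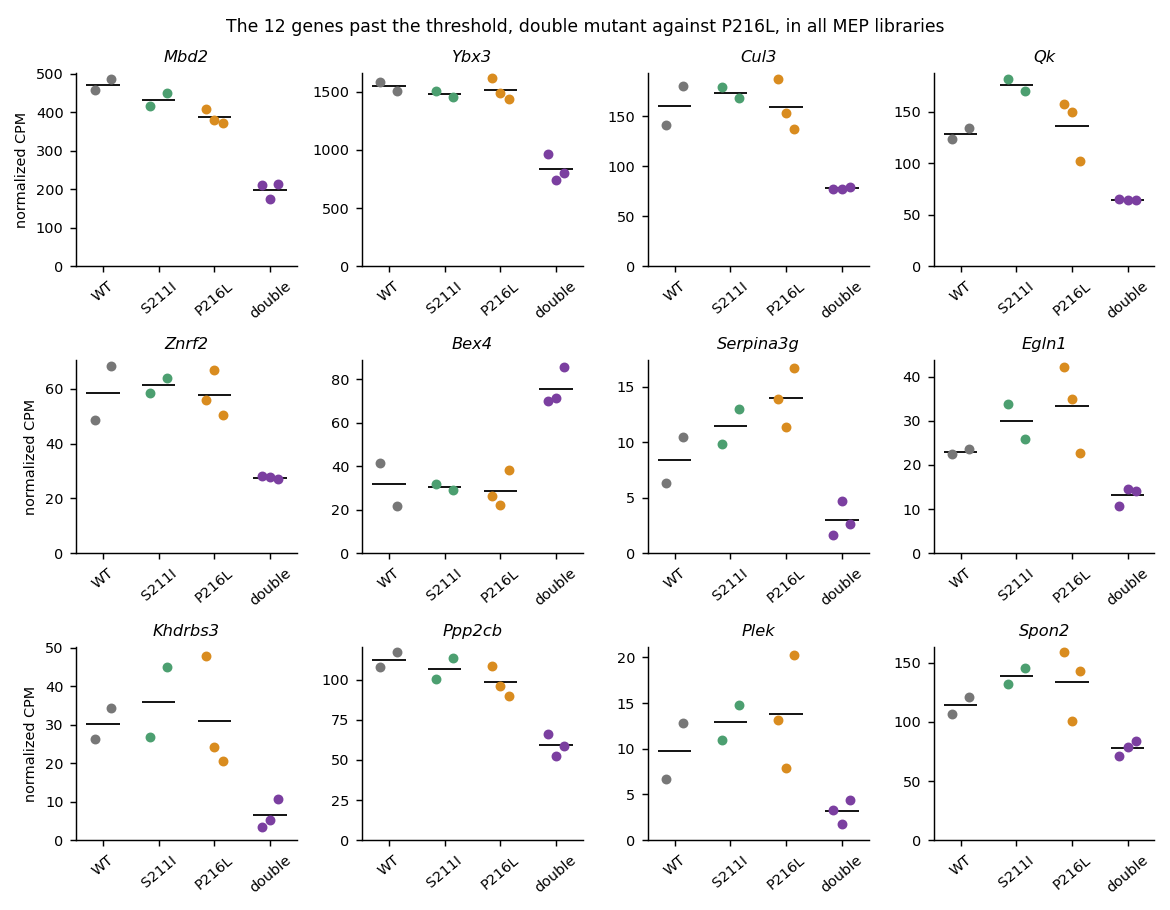
Normalized CPM (vertical axes, from 0) of the 12 called genes in the 10 MEP libraries by Etv6 genotype; each point is 1 library and each bar the group mean. In 11 panels the 3 double-mutant points lie below all 7 others, and in the Bex4 panel they lie above.

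The ubiquitin ligase genes Cul3 and Znrf2 fell. Cul3 encodes the scaffold of the ligases that take BTB-domain proteins, such as Keap1, as adaptors. Cul3 stood at 77.5, 77.8 and 79.2 CPM in the double mutant and at 187, 153 and 137 in P216L, with S211I and WT at 141 to 180. The double-mutant values lay within a narrow band beneath all others. The change was -1.03 ± 0.14 (edgeR, adjusted p = 0.000788), a 2.04-fold difference. The other 5 cullins measured, Cul1, Cul2, Cul4a, Cul4b and Cul5, lay between -0.02 and 0.11 with SEs of 0.102 to 0.164, and Keap1 was at -0.05 ± 0.13. In the list of 33 proteasome and cullin genes, Cul3 was the 1 called member, and the list median was -0.01.

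Znrf2 encodes a membrane-associated RING-type ligase. Its CPM was 28.0, 27.9 and 26.9 in the double mutant and 55.8, 67.0 and 50.5 in P216L, with no overlap. The log2 fold change was -1.07 ± 0.18 (edgeR, adjusted p = 0.0112). The adjusted p rose to 0.0804, 0.0803 and 0.0767 when double-mutant replicate 1, 2 or 3 was left out and to 0.058 without P216L replicate 1. The related Znrf1 was not called, at -0.23 ± 0.17.

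**Figure D2:**
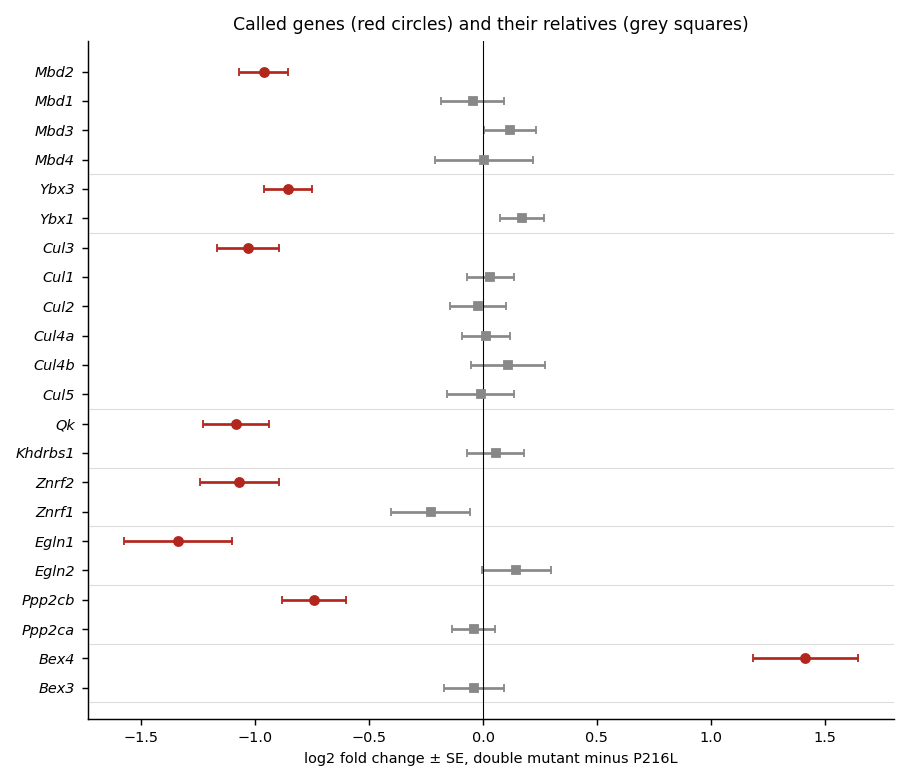
Log2 fold change of the double mutant against P216L (horizontal axis) with SE bars, for 8 called genes (red circles) and relatives in the same gene family (grey squares), grouped by family. Mbd2, Ybx3, Cul3 and Qk lie between -1.08 and -0.86, while the relatives drawn lie between -0.23 and 0.17. Not drawn are Khdrbs3, a called STAR gene like Qk (-2.23 ± 0.38), and Serpina3f, a relative of Serpina3g (-1.71 ± 0.95).

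The calls of the other genes held in fewer alternatives. Egln1, the prolyl hydroxylase that marks hypoxia-inducible factors for destruction in oxygen, was at 10.8, 14.6 and 14.2 CPM in the double mutant and 42.2, 35.0 and 22.6 in P216L. The lowest P216L library was close to the WT values of 22.5 and 23.6. The fold change was -1.34 ± 0.24 (edgeR, adjusted p = 0.019), and the call held in 1 of 6 fits that left out a library, that without P216L replicate 3 (adjusted p = 0.00174). Egln2, its relative, was at 0.15 ± 0.15 and the target Hif1a at 0.13 ± 0.19. The list of 25 tested glycolysis and hypoxia genes had a median of -0.02 and Egln1 as its 1 called member.

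Ppp2cb encodes the second catalytic subunit of protein phosphatase 2A. It stood at 66.5, 52.3 and 58.6 CPM in the double mutant and at 109, 95.9 and 90.1 in P216L (-0.74 ± 0.14, edgeR, adjusted p = 0.0399). The groups did not overlap, and the call held in 1 of 6 fits that left out a library, that without P216L replicate 3 (0.0156), with adjusted p up to 0.376. The main catalytic subunit gene Ppp2ca was far more abundant, at 594 ± 20.4 CPM against 611 ± 27.7 in P216L, with a change of -0.04 ± 0.094. Spon2, a secreted matrix protein gene, was at 70.8, 79.1 and 83.8 CPM in the double mutant and 159, 100.4 and 143 in P216L (-0.78 ± 0.15, edgeR, adjusted p = 0.0465). Its P216L replicate 2 lay nearest to the double mutant. Without that library the adjusted p was 0.00174, and without any other of the 6 it was above the threshold, up to 0.367 without P216L replicate 1.

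Serpina3g and Plek were scarce in MEP. Serpina3g, a serine protease inhibitor gene known in stem cells and lymphocytes, was at 1.66, 4.72 and 2.61 CPM in the double mutant and 13.9, 11.4 and 16.7 in P216L (-2.15 ± 0.37, edgeR, adjusted p = 0.0171). It belongs to a cluster of near-identical genes, so the authors' counting could have split its reads. Its neighbour in the cluster, Serpina3f, was at 0.384 ± 0.097 and 1.24 ± 0.594 CPM, a log2 fold change of -1.71 ± 0.95. The Serpina3g call was lost without double-mutant replicate 1 or 3 (adjusted p = 0.135 and 0.133) and without P216L replicate 1 (0.0945). Plek, which encodes the protein kinase C substrate pleckstrin of platelets and leukocytes, was at 3.32, 1.73 and 4.40 CPM against 13.1, 7.93 and 20.2 (-2.11 ± 0.41, edgeR, adjusted p = 0.0465). Neither gene overlapped between the groups. Plek was highest in P216L replicate 3, and without it the adjusted p was 0.146. The Plek call held in 1 of the 6 fits that left out a library, that without P216L replicate 2 (0.0196).

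Bex4, an X-linked gene of the brain-expressed X-linked family whose product binds tubulin, was the single higher gene. Its CPM was 69.8, 71.1 and 85.5 in the double mutant and 26.4, 21.99 and 38.1 in P216L. The other 4 MEP libraries, with S211I alone or WT, lay at 21.6 to 41.6. The log2 fold change was 1.41 ± 0.23 (edgeR, adjusted p = 0.0112), 2.62-fold higher. It was lost without double-mutant replicate 3 (adjusted p = 0.0774) and without P216L replicate 1 or 2 (0.136 and 0.052). Bex3, at 211.2 ± 19.9 and 218 ± 46.2 CPM, had a change of -0.04 ± 0.13.

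**Figure D3:**
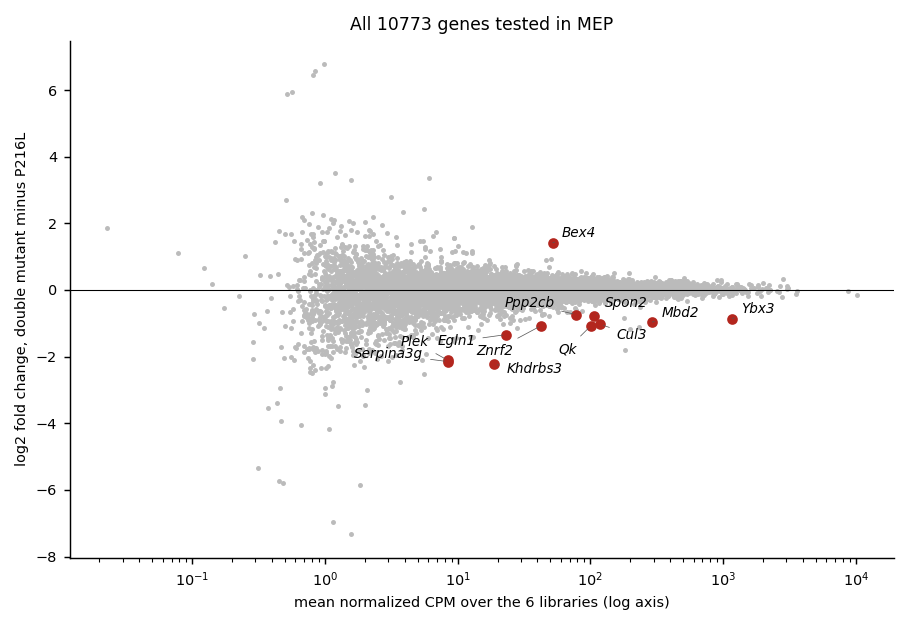
Mean normalized CPM over the 6 libraries (log horizontal axis) against the log2 fold change of the double mutant against P216L, for each gene tested; red points are the 12 called genes. The called genes range from the scarce Serpina3g and Plek to the abundant Ybx3, and genes at low CPM with larger fold changes were not called.

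Mbd2, Ybx3, Cul3 and Qk passed in all 13 alternatives, and their largest adjusted p over the 6 fits that left out a library was 0.00561, 0.0092, 0.0228 and 0.0257. The other 8 passed in 6 to 10 of the 13. Every called gene kept its direction in every one.

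Below the threshold, the 9 further higher genes with the smallest p are given as values. Ccnd1, which encodes the D-type cyclin that drives entry into the cell cycle, was at 14.3, 21.1 and 25.2 CPM in the double mutant and 6.94, 5.39 and 3.57 in P216L. These did not overlap, and its log2 fold change was 1.89 ± 0.39 (edgeR, adjusted p = 0.0616). The other D-type cyclins, more abundant in MEP, were at -0.21 ± 0.17 for Ccnd2 (74.5 ± 12.9 and 86.2 ± 14.3 CPM) and -0.06 ± 0.13 for Ccnd3. Plvap, an endothelial diaphragm protein gene, was at 62.1, 73.9 and 64.2 against 40.3, 35.6 and 27.4 CPM. Rnf128, a ubiquitin ligase gene, was at 52.6, 67.4 and 58.3 against 28.3, 26.2 and 43.4 CPM, and WT replicate 1 at 62.7 lay within the double-mutant range. The adjusted p was 0.102 for Plvap and 0.121 for Rnf128, and for Rnf128 0.0153 without P216L replicate 3. AI506816, Itgb7, Camk1d, Col5a1, Ppm1e and Sapcd1 had log2 fold changes of 0.57 to 3.35 and adjusted p of 0.249 to 0.286 (edgeR).

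Lower genes short of the threshold, chosen after their values were seen, included Btg2, Smad4 and Brd1. Btg2, an antiproliferative p53 target, was at 4.78, 6.11 and 3.85 CPM in the double mutant and 13.5, 16.9 and 10.4 in P216L (-1.47 ± 0.32, edgeR, adjusted p = 0.0878). Smad4, the shared effector of TGF-beta and BMP signals, was at 18.7, 19.1 and 16.9 against 33.5, 38.0 and 29.4 (-0.89 ± 0.19, adjusted p = 0.0938). Brd1, a subunit of a histone acetyltransferase complex, was at 21.8, 23.6 and 28.0 against 44.7, 52.4 and 35.1 (-0.85 ± 0.19, adjusted p = 0.102). None of the 3 overlapped between the groups, as held for 1028 genes in all (9.54%). All 3 passed without P216L replicate 3, at adjusted p of 0.0462, 0.0486 and 0.0265.

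Called members were counted in 33 gene lists of blood, cell cycle and general functions. Of these lists, 29 held no called member and the other 4 held 1 each, all lower: Mbd2, Cul3, Egln1 and Plek. These were 4 of 649 tested genes, against 0.111% of all genes, in lists chosen with earlier results of these data known. The lists are described against the background of 49.5% positive and a median of -0.0022. The 22 erythroid and megakaryocyte transcription factors had 13 positive members and a median of 0.04. Gata1 was at 0.04 ± 0.098 and Klf1, the activator of globin genes, at -0.10 ± 0.10. Zfpm1, the Gata1 partner Fog1, had the smallest p of that list. It was at 64.0, 61.3 and 63.1 CPM in the double mutant and 103, 125 and 55.9 in P216L, where replicate 3 overlapped the double mutant (-0.61 ± 0.20, edgeR, adjusted p = 0.764). Without that library the value was -0.86 with an adjusted p of 0.00442.

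The erythroid membrane and globin list had 9 of 28 tested members positive and a median of -0.03. The adult globin genes were the furthest from 0 but spread widely. Hbb-bs was at 118, 78.8 and 48.0 CPM in the double mutant and 102, 275 and 479 in P216L, so the groups overlapped (-1.80 ± 0.62, edgeR, adjusted p = 1). Hba-a1 and Hba-a2, nearly identical genes between which reads can be split, gave -0.86 and -1.12. Alas2, the erythroid enzyme that opens heme synthesis, was at 6.65, 6.80 and 6.60 CPM against 8.84, 20.6 and 26.8 (-1.46 ± 0.47, adjusted p = 0.764). It did not overlap, and the heme and iron list as a whole had 15 of 26 members positive and a median of 0.02. In such bulk libraries, fewer cells of a type and less RNA per cell cannot be told apart.

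The megakaryocyte and platelet receptor list had 7 of 20 tested members positive, a median of -0.44 and Plek as its 1 called member. Its summed CPM was 780 to 802 in the double mutant and 772 to 813 in P216L, which overlapped. Most of that sum was Fermt3, at 610, 601 and 631 CPM in the double mutant and 591, 584 and 547 in P216L (0.10 ± 0.094). The sum therefore says little about the scarcer members. The members with low values were scarce ones. Cd9, a tetraspanin of platelets, was at 4.99, 5.07 and 6.46 CPM against 11.1, 10.9 and 13.98 (-1.11 ± 0.30, edgeR, adjusted p = 0.398). Serpine2 was at -1.98 ± 0.81. Of the platelet cytoskeleton list, 8 of 16 tested members were positive, with Zyx at -0.89 ± 0.29 and Tpm4 at -1.58 ± 0.66, or -0.90 without P216L replicate 2.

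The stem cell list had 5 of 15 tested members positive and a median of -0.59, which was -0.13 without P216L replicate 3 and -0.12 with voom. Meis1, a homeobox gene of stem cells and megakaryocytes, was at 6.23, 3.23 and 3.16 CPM against 8.96, 6.58 and 13.7 (-1.22 ± 0.43, edgeR, adjusted p = 0.876). Flt3 and Cd34, markers of early progenitors, gave -1.38 ± 0.58 and -1.31 ± 0.56. Cd34 was at 17.8 CPM in P216L replicate 3 and 5.43 and 4.79 in the other P216L libraries, and without that replicate its value was -0.51. Flt3 was at -0.90 without double-mutant replicate 2. The groups overlapped for Flt3 and not for Meis1 or Cd34. The summed CPM of the list was 650 to 898 in the double mutant and 674 to 925 in P216L. Most of that sum was Kit, at 685, 740 and 514.5 CPM in the double mutant and 659, 761 and 465 in P216L. It therefore says little about the scarcer members.

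**Figure D4:**
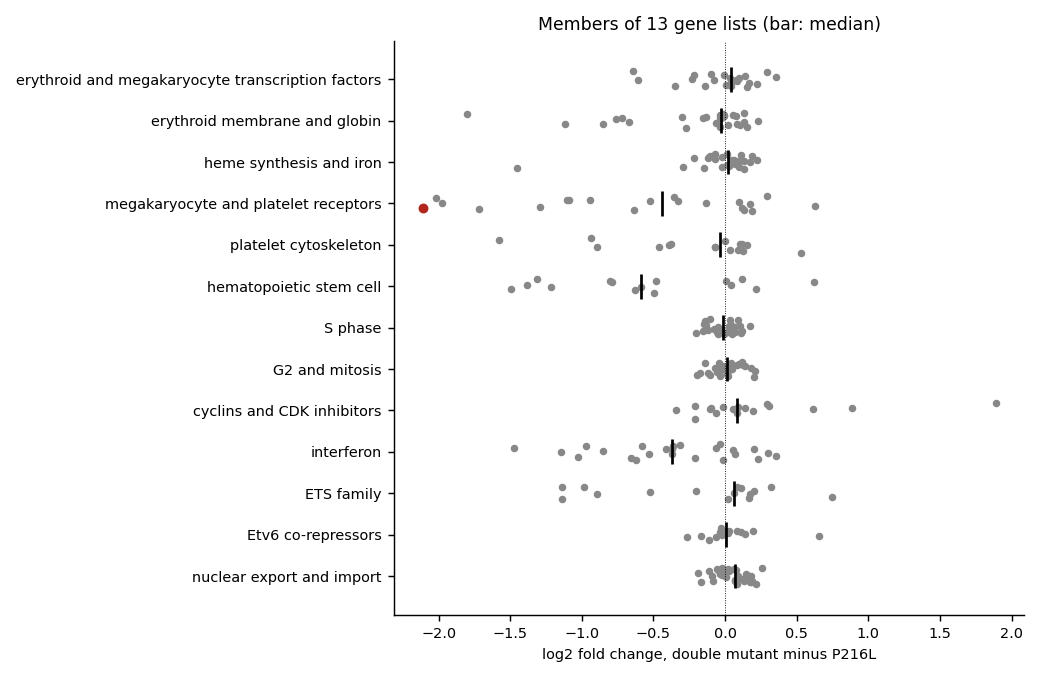
Log2 fold change of the double mutant against P216L (horizontal axis) for the tested members of 13 gene lists; each point is 1 gene, red where called, and the black bar is the list median. The cell cycle lists are packed around 0, and the megakaryocyte receptor, stem cell and interferon lists have medians of -0.44, -0.59 and -0.37.

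Cell cycle lists had medians close to that of all genes. Of 30 S phase genes 14 were positive (median -0.02), and of 28 genes of G2 and mitosis 15 were positive (0.01). Of 17 tested cyclins and CDK inhibitors 10 were positive, with Ccnd1 and E2f2, an E2F factor (0.61 ± 0.28), the members of smallest p. Among 15 ETS family genes 9 were positive. Gabpa, the widely expressed ETS activator, was at 121, 106 and 118 CPM against 101, 90.8 and 82.7 (0.32 ± 0.15, edgeR, adjusted p = 1), and Spi1, the myeloid ETS factor, was at -1.14 ± 0.48 with overlapping groups. The 15 tested co-repressor genes of Etv6 had 8 positive and a median of 0.01. The 33 nuclear export and import genes had 22 positive and a median of 0.07, with the exportin gene Xpo1 at 0.07 ± 0.16.

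Interferon-responsive genes had 6 of 24 tested members positive and a median of -0.37, and antigen presentation genes 2 of 16 and -0.12. Over the 13 alternatives the interferon median ran from -0.58 with voom to -0.10 without P216L replicate 1, and the antigen presentation median from -0.20 with voom to -0.07 without double-mutant replicate 3. The summed CPM of the interferon list was 1010 in P216L replicate 1 and 742 to 807 in the other 5 libraries. Ifitm3, an antiviral membrane protein gene chosen after its values were seen, was at 18.1, 14.5 and 11.1 CPM against 29.2, 25.7 and 34.2 (-1.03 ± 0.24, edgeR, adjusted p = 0.121). Psmb8, an immunoproteasome subunit gene likewise chosen, was at 98.9, 93.9 and 83.4 against 129, 123 and 124 (-0.45 ± 0.17, adjusted p = 0.937). Neither overlapped between these groups, but S211I and WT libraries at 76.1 to 123 CPM covered the double-mutant range for Psmb8. For Ifitm3, WT replicate 3 at 17.97 CPM lay below double-mutant replicate 1 at 18.07, and the other S211I and WT libraries were at 24.6 to 29.6. Markers of other blood cells were mostly scarce, and most had fold changes below 0. Of the mast cell, basophil and eosinophil markers, 2 of 4 tested were positive, and Il1rl1 was at 53.7 to 90.1 CPM over the 6 libraries. Summed B lymphoid markers, with 0 of 10 tested members positive, were 13.9 to 34.1 CPM in the double mutant and 14 to 56.1 in P216L. Neutrophil and granule markers had 1 of 10 positive, with a median of -0.57 that became 0.54 without P216L replicate 3. Monocyte and macrophage markers summed to 11.4 to 20.3 CPM against 14.7 to 61.3, and T and NK cell markers to 7.03 to 16.4 against 16.3 to 28.1. The part of such cells in the lower values of Plek, Serpina3g and Flt3 was not tested.

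The same substitution was then compared on the WT background, with 2 libraries a group. The WT libraries lay far apart on the first principal component, replicate 1 at 37.3 and replicate 3 at 2. The S211I libraries lay at 17.7 and -6.4. S211I alone against WT gave 0 called genes by edgeR's quasi-likelihood test, and also 0 by DESeq2 and by voom, with 511 genes at an unadjusted p below 0.05 by edgeR (4.74%). For the 12 genes, chosen in another contrast of the same 10-library fit, 8 of the log2 fold changes were positive and 4 negative. Mbd2 was at -0.12 ± 0.13, Ybx3 at -0.06 ± 0.13, Cul3 at 0.11 ± 0.16, Qk at 0.45 ± 0.17 and Bex4 at -0.03 ± 0.28. The smallest adjusted p of the 12 was 0.939.

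The test of the difference between the S211I effects with and without P216L called 1 gene (0.00928%). It was Qk, at -1.54 ± 0.23 (edgeR, adjusted p = 0.0135). Qk stood at 181 and 170 CPM with S211I alone and 123 and 134 in WT, so S211I libraries were the highest of the 4 genotypes and double-mutant libraries the lowest. That call held in 9 of 16 alternatives, with log2 values of -1.70 to -1.43 and adjusted p of 3.14e-07 to 0.236. It was lost without double-mutant replicate 2 or 3, without P216L replicate 1, without either S211I library, without WT replicate 1 and with the replicate number as a block. The test called 7 genes with voom, 12 with DESeq2 and 32 with no low-count filter. For Cul3 the adjusted p of the difference was 0.137, for Mbd2 and Ybx3 0.217 and for the other 8 genes 0.232 to 0.649. All 12 had an unadjusted p below 0.05 there, against 5.64% of all genes, but this test shares the contrast that chose them.

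**Figure D5:**
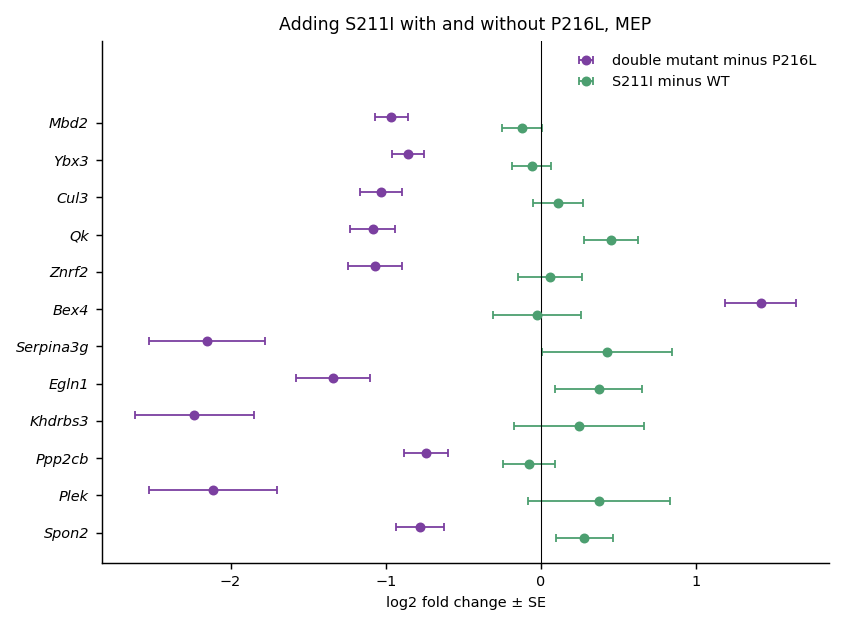
Log2 fold change with SE bars (horizontal axis) for the 12 called genes, for the double mutant against P216L (purple) and S211I against WT (green). The green points lie between -0.12 and 0.45, and Qk has the green point furthest from 0.

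The 12 genes were also measured in HSC of the same 2 genotypes, in libraries fitted apart. All were tested there, 6 with a fold change below 0 and 6 above, and the smallest adjusted p was 0.717. Mbd2 was at 409.6, 161 and 597 CPM in double-mutant HSC and at 86.2, 436 and 309 in P216L HSC, a spread that covered both groups. Cul3 was at 139, 106 and 85.8 CPM against 700.0, 345 and 553, and its fold change was -2.27 ± 1.27. Plek was at -3.04 ± 1.70. Spon2 and Znrf2, lower in MEP, had fold changes above 0 in HSC (6.98 ± 3.54 and 3.32 ± 2.60). In P216L HSC, Spon2 was at 0, 1.28 and 0 CPM and Znrf2 at 0, 1.28 and 32.6, in libraries of 406024 to 850136 counts. The share of all HSC genes without overlap was not counted, so separation of the groups is not given for these genes. In WT HSC, Cul3 ran from 20.4 to 297 CPM. Ybx3 was at -0.28 ± 0.65 and Qk at 0.65 ± 1.51 there. Serpina3g was at 274 to 1145 CPM in these HSC and Plek at up to 631 CPM, on a scale normalized apart from that of MEP. The biological coefficient of variation was 1.6 in HSC against 0.174 in MEP, and the SE of the HSC fold change was 0.667 for Serpina3g, 1.14 for Mbd2 and 3.54 for Spon2. The HSC comparison called 2 genes of 9471 (0.0211%), neither among the 12, and 660 genes had an unadjusted p below 0.05 (6.97%).

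The position of the called genes relative to Etv6 was described last. Etv6 lies on chromosome 6, as do the called genes Ybx3 and Znrf2, while 516 of the tested genes (4.79%) are on that chromosome. The 12 genes lie on 10 chromosomes. Of the 50 nearest annotated genes, 25 on each side of Etv6, 12 were tested, 0 were called and 0 had an unadjusted p below 0.05 by edgeR. Among them was the CDK inhibitor gene Cdkn1b, at 0.29 ± 0.65. This window does not reach Ybx3. Between Ybx3 and Etv6 lie 69 annotated genes, of which 1 was tested and 0 called. Strain background is not stated in the sources used here, so linked sequence differences and the alleles cannot be told apart for genes near Etv6. Nor can they for Ybx3 and Znrf2 on the same chromosome.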

How the data were processed

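Low-input RNA-seq libraries were made with SMART-Seq v4 from sorted cells, per the labels' protocols. The authors deposited 1 table of estimated counts per gene. FastQC, Salmon and GRCm39 are named in the submitters' processing notes, without versions. The counts were rounded to whole numbers. Of 30519 genes, 30211 took a symbol from RefSeq (GRCm38.p6), and the other 308 held 0.044% of counts. The 10 MEP libraries were fitted together with edgeR 4.0.16 (limma 3.58.1, R 4.3.3): TMM size factors, filterByExpr (minimum count 10, minimum total 15), robust quasi-likelihood fits and Benjamini-Hochberg adjustment over all genes tested, at 0.05. The 11 HSC libraries were fitted apart. Each SE was derived from the size of the log2 fold change and its quasi-likelihood F statistic. A chi-square of the counts of each pair within the 2 groups, divided by its degrees of freedom, was 4.63 to 15.2, above the value near 1 that copies would give. The scripts were tested on simulated data. Named genes were all called genes, the higher genes of smallest p up to 10, Etv6, and up to 4 list members of smallest p; a gene that this rule names is not reported here. The comparison, the genes and the lists were chosen with earlier results of these data known. Alternatives were RLE size factors, no filter, a minimum count of 30, voom with quality weights, DESeq2 1.42.0, the replicate number as a block, only the 6 libraries, and each library left out. The protein sequence of Etv6 was not analysed here.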

Additional observations from a re-analysis of the deposited data

Results flagged for a closer look

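By edgeR's quasi-likelihood test with TMM size factors and the low-count filter, Qk was the 1 gene for which a test of the difference between the S211I effects on the 2 backgrounds passed the threshold. The S211I effect with P216L minus that without P216L was -1.54 ± 0.23 on the log2 scale (edgeR quasi-likelihood test, adjusted p = 0.0135). It is made of -1.08 ± 0.15 for the double mutant against P216L, where all 3 double-mutant libraries were lower, and 0.45 ± 0.17 for S211I against WT, where both S211I libraries were higher. The WT and S211I groups have 2 libraries each. The call held in 9 of 16 alternatives, with adjusted p of 3.14e-07 to 0.236, and was lost with the replicate number as a block. The same test called 7 genes with voom, 12 with DESeq2 and 32 with no low-count filter.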

How the results depend on the processing

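For the double mutant against P216L in MEP, the 12 called genes became 47 with no low-count filter (11 higher, 36 lower), 34 with voom quality weights (9 and 25) and 27 with DESeq2 (5 and 22). All 12 remained among the calls in these 3 and with RLE size factors or a minimum count of 30. Leaving out 1 library gave 5 to 20. The lowest counts came without double-mutant replicate 1 or P216L replicate 1, and 20 came without P216L replicate 3. Fitting only the 6 libraries gave 11 and kept 9. The replicate number as a block gave 9 calls, without Khdrbs3, Ppp2cb and Spon2, and the block left 0 calls for the difference between the S211I effects and 0 in HSC. Same-numbered libraries did not deviate together (correlations -0.0238, 0.0029 and -0.0194), and 0 of 3 double-mutant libraries correlated best with their own number, so the numbers were not taken as pairs. Etv6 changed sign without double-mutant replicate 1 (-0.052) and without P216L replicate 1 (-0.0483), in a range of -0.052 to 0.26 with 1 library left out. S211I against WT stayed at 0 calls in every alternative run. The difference between S211I effects, 1 call, became 32 with no filter, 7 with voom and 12 with DESeq2, and 0 to 13 with 1 library left out. HSC double mutant against P216L, 2 calls, became 1 with RLE, 0 at a minimum count of 30, 1 with voom, 43 with DESeq2, 0 with only the 6 libraries, and 0 to 4 with 1 library left out. The causes were not tested. With 3 libraries a group, 8 of the 12 calls were lost in 1 or more of the fits that left out a library.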

Other observations

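Retreg1, an endoplasmic reticulum autophagy receptor gene, was chosen after its values were seen. It was at 5.19, 5.88 and 3.16 CPM in double-mutant MEP and 15.7, 9.57 and 16.7 in P216L MEP, without overlap between the groups. Its log2 fold change of -1.54 ± 0.32 missed the threshold (edgeR, adjusted p = 0.0616) and passed it in 4 of 13 alternatives, as did those of Brd1, Btg2, Ccnd1, Rnf128, Smad4 and 1 gene without a symbol.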
